A study of Mus musculus with 25 samples.

Results

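Tfap2b, Lmx1b and Msx1 were genes for developmental transcription factors whose transcripts were abundant in some of 5 murine melanoma lines and at or near the detection limit in others. They were described here with 1 paralog each, Tfap2c, Lmx1a and Msx2. These 6 genes, out of 55385 in the count tables, were chosen by symbol with their levels in these libraries already known, so their levels are a description and were given no test. Of the 6 genes, 3 (Tfap2b, Lmx1b and Msx1) passed the filter on low counts, as 15247 genes did in all.

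RNA-seq was performed on cultured, untreated cells at a confluency of 50%, with 5 biological replicates of each line and 25 libraries in total. WT31 carried Tyr::NrasQ61K/° and INK4a-/-, RET a human RET transgene under the mouse metallothionein promoter, HCmel12 came from HGF-CDK4(R24C) animals, D4M from Tyr::CreER;BrafCA;Ptenlox/lox animals, and B16F10 luc2 was a purchased, luciferase-labelled form of B16F10, a line with many mutations. The study treated WT31, B16F10 luc2 and RET as lines that colonised the liver with high or intermediate efficiency (HIM-melanoma), and D4M and HCmel12 as lines that did so poorly (LM-melanoma). Each line is 1 established line, so that its genotype, its origin and its culture history cannot be told apart. WT31, RET and B16F10 luc2 were kept in RPMI, HCmel12 in RPMI with further supplements and D4M in Advanced DMEM/F-12, so line and medium cannot be told apart for the LM lines either.

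AP-2 factors, the family of Tfap2a, Tfap2b and Tfap2c, bind GC-rich palindromes as dimers and act in the neural crest, the embryonic cell population from which melanocytes arise. Lmx1a and Lmx1b belong to the LIM homeodomain factors, which recruit partner proteins through their LIM domains. Lmx1b is known for patterning the dorsal limb, the kidney and midbrain neurons. Msx1 and Msx2 are homeodomain repressors that lie downstream of BMP signals in the neural crest and in many tissue interfaces.

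Library totals lay between 24199083 and 25843286 counts. HCmel12 replicate 4 stood apart from its line, with a mean chi-square per gene between 47.3 and 77.2 against the other HCmel12 libraries (over genes with a mean of at least 10 counts in a pair). WT31 replicate 5 did so too, with 27.5 to 66.6 against the other WT31 libraries, which lay between 12.2 and 23.4 of one another. The 9 melanocyte markers together reached between 12143 and 30214 CPM (counts divided by library size after scaling) in the libraries of WT31, B16F10 luc2, RET and HCmel12, but between 6.54 and 59.7 CPM in D4M, where Ednrb was at 0 counts. The label melanoma was therefore not matched by melanocyte markers in D4M. The highest D4M sum was that of replicate 1. Of these markers, Tyr, Mlana, Pmel and Dct, named after their values were seen, had lower means in both LM lines than in every HIM line. Only Tyr, Mlana and Pmel were lower at an adjusted p under 0.05 in each comparison of the lines (voom and limma). Dct averaged 3005 CPM in HCmel12 against 3516 to 6833 CPM in the HIM lines and was not. In HCmel12, Tyr averaged 12.5 CPM against 219 to 3982 CPM in the HIM lines, Mlana 143 CPM against 1002 to 2088 CPM and Pmel 779 CPM against 1849 to 6134 CPM. The part of these pigment genes in the levels of Tfap2b and Lmx1b, which also differ between HIM- and LM-melanoma, was not tested. The 7 fibroblast markers summed to between 679 and 1325 CPM in D4M and to at most 88.8 CPM in the other lines. Lum had 0 counts in D4M and Dcn reached at most 12 counts in any library.

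The genes lie on 4 chromosomes of GRCm38. Tfap2b is at chr1:19208914-19238576 on the plus strand and Lmx1a at chr1:167689237-167848741 on the same strand. Lmx1b is at chr2:33560965-33640511 on the minus strand and Tfap2c at chr2:172549593-172558622 on the plus strand. Msx1 is at chr5:37820485-37824583 and Msx2 at chr13:53466884-53473074, both on the minus strand. The only gene overlapping one of them was Gm38011, a short unprocessed transcript model on the opposite strand of Lmx1b.

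The values are estimated counts from a program that divides a read among the transcripts it matches, so the resemblance of the paralogs bears on every level below. The coding stretches of 60 bases in which each pair was most alike are shown, with the bases that differ in capitals (GENCODE M21, coding strand, 5′ to 3′). The first pair lies across exons 4 and 5 of Tfap2b (chr1:19226612-19228457) and of Tfap2c (chr2:172553589-172554056). The second lies across exons 5 and 6 of Lmx1b (chr2:33566720-33566926) and 6 and 7 of Lmx1a (chr1:167832853-167840920). The third lies in exon 2 of Msx1 (chr5:37821551-37821610) and of Msx2 (chr13:53468444-53468503).
Tfap2b: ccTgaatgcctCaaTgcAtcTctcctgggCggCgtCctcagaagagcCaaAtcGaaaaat
Tfap2c: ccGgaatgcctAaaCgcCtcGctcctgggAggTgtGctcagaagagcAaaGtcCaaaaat
Lmx1b: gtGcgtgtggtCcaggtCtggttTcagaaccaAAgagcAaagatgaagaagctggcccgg
Lmx1a: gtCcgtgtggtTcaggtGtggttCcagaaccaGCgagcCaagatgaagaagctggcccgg
Msx1: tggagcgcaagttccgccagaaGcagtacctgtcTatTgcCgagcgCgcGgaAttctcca
Msx2: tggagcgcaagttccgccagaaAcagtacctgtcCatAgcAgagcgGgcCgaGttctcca

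Even in these stretches, 49 of 60 bases were identical for Tfap2b and Tfap2c, 53 for Lmx1b and Lmx1a and 53 for Msx1 and Msx2. The longest identical coding run was 11 bases for Tfap2b and Tfap2c, 21 for Lmx1b and Lmx1a and 22 for Msx1 and Msx2. Tfap2b was closer to Tfap2a, with an identical run of 29 bases. No run reached 31 bases, the length on which the program matches by default. Over whole transcripts, at most 0.777% of the 31-base words of a member (Msx2) occurred in transcripts of another gene.

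Tfap2b was abundant in both LM-melanoma lines and in no other line. The 5 D4M libraries held 5186, 5518, 6343, 6505 and 6288.1 counts (replicates 1 to 5), and the HCmel12 libraries 3170.9, 3769, 4046.1, 2183 and 2954. The other 15 libraries held between 1 and 5.6 counts each. Every D4M library was thus above every HCmel12 library, and both lines were far above the rest without overlap. The mean was 265 ± 22.3 CPM in D4M and 130 ± 29.2 CPM in HCmel12 (SD, n = 5), a ratio of 2.04, and the fitted difference on the log2 scale was 1.05 (SE 0.10). The lowest HCmel12 library was replicate 4, the one that stood apart, and without it the HCmel12 mean was 140 CPM. Its melanocyte markers summed to 17822 CPM, against 12143 to 13348 CPM in the other HCmel12 libraries, and their part in the Tfap2b level was not tested.

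In HIM-melanoma, the Tfap2b mean was 0.12 ± 0.0769 CPM in RET, 0.101 ± 0.0458 CPM in WT31 and 0.0732 ± 0.0314 CPM in B16F10 luc2 (SD, n = 5), and these 3 lines overlapped one another. A count of 3, taken as the smallest amount that can be told from 0, corresponded to between 0.111 and 0.138 CPM. With the counts of each line summed, Tfap2b was 2126 times as high in D4M as in RET (exact 95% interval from counting error 1309 to 3720). In HCmel12 it was 1044 times as high as in RET (643 to 1827). These intervals cover counting error only. In bulk RNA, fewer expressing cells and less RNA per cell cannot be told apart.

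Lmx1b, the LIM homeodomain gene, was abundant in the lines where Tfap2b was low. The B16F10 luc2 libraries held 566.6, 498.4, 504.9, 538.4 and 535.3 counts, the WT31 libraries 291.2, 342.9, 282.2, 340.6 and 393.4, and the RET libraries 268.3, 294.3, 254.1, 233 and 231.1. D4M held 3, 0, 0, 0 and 1 counts and HCmel12 0, 0, 0, 1 and 0. The 3 counts of D4M replicate 1 coincided with the highest melanocyte marker sum of D4M, and whether both have one source was not tested. The mean was 21.4 ± 0.92 CPM in B16F10 luc2, 12.5 ± 1.52 CPM in WT31 and 9.96 ± 0.846 CPM in RET (SD, n = 5). B16F10 luc2 was above WT31 without overlap, by 1.7 times. WT31 replicate 5, which stood apart, was the highest WT31 library, and without it the WT31 mean was 12 CPM. WT31 and RET were barely separated. The lowest WT31 library had 10.95 CPM and the highest RET library 10.94 CPM, the fitted difference was 0.33 on the log2 scale (SE 0.10), and the ranges overlapped when libraries were scaled by their size alone.

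Against D4M, the summed Lmx1b level was 281 times as high in RET (exact 95% interval 109 to 1033), 354 times in WT31 (138 to 1299) and 602 times in B16F10 luc2 (235 to 2210). Of the 4 D4M counts, 3 came from replicate 1, and without it the ratios were 907 (162 to 35844), 1141 (204 to 45095) and 1942 (348 to 76737). Against HCmel12, with 1 count in all, the ratio was 1237 for RET with an interval from 222 to 48881. The ranges of D4M and HCmel12 overlapped. Lmx1b had a coefficient of variation between replicates of 4.31% in B16F10 luc2, 12.1% in WT31 and 8.49% in RET. Tfap2b varied by 8.42% in D4M and 22.5% in HCmel12, and Msx1 by 21.5% in D4M.

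Msx1, the homeodomain repressor, was abundant in D4M alone. Its D4M libraries held 521, 670, 368, 514 and 486 counts, a mean of 22.7 ± 4.89 CPM (SD, n = 5). WT31 held 1, 1, 2, 0 and 3 counts and HCmel12 0, 0, 0, 2 and 1, while all B16F10 luc2 and RET libraries were at 0. The lowest D4M library had 16.4 CPM and no other library exceeded 0.111 CPM, so D4M did not overlap any line, and the ranges of the 4 other lines overlapped one another. Against the floor of 3 counts per library, Msx1 was at least 187-fold higher in D4M than in B16F10 luc2 and at least 194.6-fold higher than in RET. These floor folds are not on the scale of the ratios of summed counts. With the counts summed, the exact 95% interval of the ratio began at 762 for B16F10 luc2 and at 790 for RET, without an upper end. By that measure Msx1 was 427 times as high in D4M as in WT31 (exact 95% interval 207 to 1062) and 939 times as high as in HCmel12 (321 to 4555). Without HCmel12 replicate 4, which held 2 of the 3 counts, the latter was 2254 (404 to 89060). HCmel12 therefore shared the high Tfap2b of D4M but not its Msx1. The cell type markers moved with Msx1: 6 of 7 fibroblast markers were above 3 counts in every D4M library and 3 of 7 in each other line, while 2 of 9 melanocyte markers were so in D4M and 8 or 9 elsewhere. Their part in the Msx1 level was not tested.

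The paralogs were at or near the detection limit. Msx2, the closest relative of Msx1 by sequence among the members, held 6, 9, 7, 3 and 4 counts in D4M, a mean of 0.258 ± 0.108 CPM (SD, n = 5), and 0 counts in the 20 other libraries. It thus appeared in the same line as Msx1, at a level where the highest D4M library had 9 counts. Tfap2c, an AP-2 factor of trophoblast and germ cells, held 15 counts in all, spread over 7 libraries, with a maximum of 4 in D4M replicate 1 and none in WT31. Lmx1a, which acts in the roof plate and in dopaminergic neurons, had 1 count in each of 2 libraries, WT31 replicate 5 and D4M replicate 1. No line had every library of Tfap2c, Lmx1a or Msx2 above 3 counts. A count of 0 of Msx2 in a single library allows up to 3 counts there. In these lines all 5 libraries were at 0, which allows fewer per library.

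**Figure D1:**
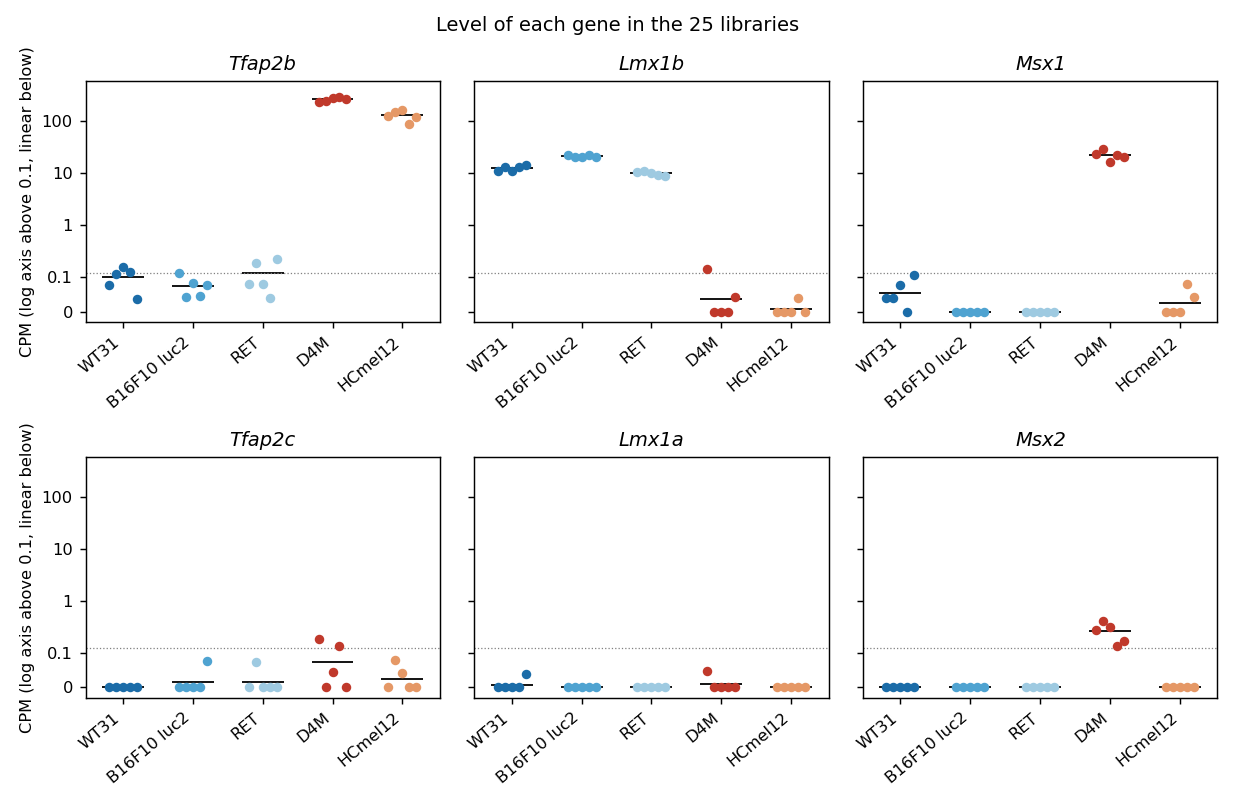
CPM of the 6 genes in each of the 25 libraries (points, in the order of replicates 1 to 5 within a line), with the line mean as a bar. The vertical axis is logarithmic above 0.1 and linear below, and the dotted line marks the mean level of 3 counts (0.121 CPM). Tfap2b is high in D4M and HCmel12, Lmx1b in WT31, B16F10 luc2 and RET, and Msx1 in D4M, while Msx2 reaches at most 0.4 CPM and Tfap2c and Lmx1a stay lower.

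Levels of different genes were compared only as TPM, which is scaled by transcript length (4 libraries of D4M and 5 of each other line). Tfap2b reached 86.1 ± 5.58 TPM in D4M and 43 ± 11 TPM in HCmel12, Msx1 16.5 ± 3.94 TPM in D4M, and Lmx1b 7.44 ± 0.565 TPM in B16F10 luc2, 4.55 ± 0.575 TPM in WT31 and 3.72 ± 0.537 TPM in RET (SD). Tfap2a, the AP-2 gene that melanocytes are known to express, was present in all 5 lines, from 35.7 ± 3.04 TPM in D4M to 62 ± 8.21 TPM in RET. Tfap2b was 2.43 ± 0.277 times Tfap2a in D4M and 0.949 ± 0.128 times Tfap2a in HCmel12 (SD over libraries). In D4M, Tfap2b was above Tfap2a in every one of the 4 libraries, with ratios from 2.06 to 2.66. In HCmel12 the ratio ran from 0.732 to 1.05, so neither was consistently higher. In the HIM-melanoma lines Tfap2a was the only AP-2 gene at an appreciable level.

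The patterns of Tfap2b and Lmx1b were mirror images at the level of lines. In none of the 25 libraries did both genes exceed 10 counts. Over the 25 libraries the Pearson correlation of their log2 CPM was -0.981. Msx1 had a correlation of 0.657 with Tfap2b and -0.568 with Lmx1b. These values rest on 5 lines, whose replicates share a line, and are a description. Of 16710 genes with every library of some line above 3 counts, 178 (1.07%) were so in D4M and HCmel12 and in no other line, as Tfap2b was. For Lmx1b, the pattern of WT31, B16F10 luc2 and RET alone was shared by 144 genes (0.862%). For Msx1, the pattern of D4M alone was shared by 825 (4.94%). Since the genes were picked for these patterns, nothing is read from the shares.

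**Figure D2:**
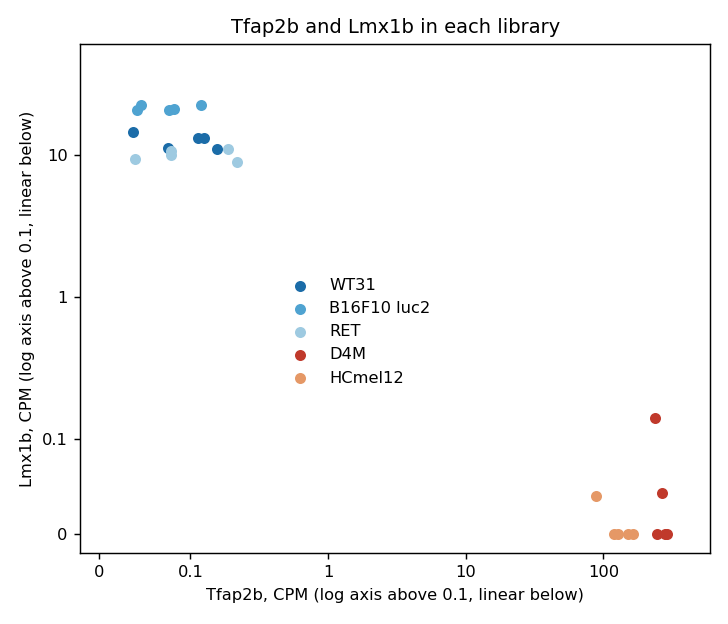
Level of Tfap2b (horizontal, CPM) against Lmx1b (vertical, CPM) in each library, with both axes logarithmic above 0.1 and linear below, coloured by line. The 15 HIM-melanoma libraries lie at the upper left, above 8.9 CPM of Lmx1b, and the 10 LM-melanoma libraries at the lower right, above 88 CPM of Tfap2b.

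The genes most like each member were taken as the 5 with the highest Pearson correlation of log2 CPM over the 25 libraries. For Tfap2b these were Zfp105, Fut4, Fgl2, Stambpl1 and Pdk4, with correlations from 0.984 to 0.990. Stambpl1 had a mean of at most 0.0625 CPM in HIM-melanoma, against 24 CPM in HCmel12 and 39.1 CPM in D4M. For Lmx1b they were Epb41l4a, St6galnac3, Gm49760, Kazn and Prox1, with correlations from 0.971 to 0.991. Epb41l4a followed the order of Lmx1b among the HIM-melanoma lines, with 49.3 CPM in B16F10 luc2, 38 CPM in WT31 and 28.9 CPM in RET, and so did St6galnac3, while Gm49760, Kazn and Prox1 did not. For Msx1 they were Slc24a2, Tmem98, Rtn4, Disp2 and Col5a2, with correlations from 0.979 to 0.983. Msx1 had 311 genes above a correlation of 0.95, against 63 for Tfap2b and 28 for Lmx1b, and its first 5 were unstable: between 0 and 5 of them stayed when a library was left out. Col5a2, a fibrillar collagen gene, had 266 CPM in D4M and at most 0.129 CPM elsewhere.

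The promoters of the 3 expressed members, taken as the 250 bases before the RefSeq start (GRCm38.p6), are shown with every CpG dinucleotide in capitals, because Tfap2b and Lmx1b moved in opposite directions between the groups of lines. The Tfap2b window lies inside the gene as GENCODE annotates it, downstream of its first annotated start, and the Lmx1b and Msx1 windows lie outside theirs. Tfap2b is at chr1:19211804-19212053 on the plus strand, Lmx1b at chr2:33641099-33641348 and Msx1 at chr5:37824586-37824835 on the minus strand.
Tfap2b: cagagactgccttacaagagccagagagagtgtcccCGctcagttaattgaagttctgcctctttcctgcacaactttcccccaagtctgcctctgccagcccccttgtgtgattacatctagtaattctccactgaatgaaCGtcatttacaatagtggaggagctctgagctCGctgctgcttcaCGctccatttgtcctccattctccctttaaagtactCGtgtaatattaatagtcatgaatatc
Lmx1b: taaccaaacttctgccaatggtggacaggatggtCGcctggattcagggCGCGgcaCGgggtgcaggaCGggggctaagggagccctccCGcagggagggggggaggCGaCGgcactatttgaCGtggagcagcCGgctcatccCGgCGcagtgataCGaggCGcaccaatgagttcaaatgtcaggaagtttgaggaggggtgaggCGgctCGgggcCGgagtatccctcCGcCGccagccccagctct
Msx1: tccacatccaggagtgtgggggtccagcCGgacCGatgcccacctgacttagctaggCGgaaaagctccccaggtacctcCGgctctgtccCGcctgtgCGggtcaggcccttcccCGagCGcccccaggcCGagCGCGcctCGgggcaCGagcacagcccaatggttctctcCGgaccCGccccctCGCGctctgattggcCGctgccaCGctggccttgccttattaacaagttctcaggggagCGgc

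The Tfap2b stretch held 5 CpG and had a GC content of 46.4%, the Lmx1b stretch 19 CpG and 65.2%, and the Msx1 stretch 20 CpG and 68%. Of 32851 promoters of the same length, 49.6% held at most as many CpG as Tfap2b, 82.1% at most as many as Lmx1b and 83.7% at most as many as Msx1. The AP-2 palindrome GCCNNNGGC, searched on both strands, was in none of the 3 stretches and in 13.7% of all promoters. The homeodomain core TAATTA, searched in the same way, was in none of them either and in 4.84% of all promoters. The 2 motifs do not overlap each other. No CpG methylation or factor binding was measured, and a missing match says only that these letters are not in the window.

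Other members of the 3 families, and the Dlx homeobox genes from outside them, were examined together as relatives. The question was whether the lines differ in these as well. Of 20 listed relatives, 9 passed the filter. Between HIM- and LM-melanoma, 1 of 9 was called (an adjusted p under 0.05 with one sign in all 6 comparisons of a HIM line with an LM line), while 12.9% of all tested genes were (6.53% higher in HIM-melanoma and 6.40% lower). Dlx2, a distal-less homeobox gene of the forebrain and branchial arches, was lower in HIM-melanoma, with 0.274 ± 0.105 CPM in B16F10 luc2, 0.799 ± 0.333 CPM in WT31 and 1.26 ± 0.381 CPM in RET against 2.55 ± 0.449 CPM in HCmel12 and 7.99 ± 2.67 CPM in D4M (SD, n = 5). Its smallest log2 difference was -1.04 (SE 0.30, adjusted p = 0.0032 by voom and limma).

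D4M, the line with high fibroblast and low melanocyte markers, differed from the other lines in 5 of the 9 relatives. A gene was called for D4M if it differed with one sign from each of the 4 other lines, which held for 35.8% of all genes (3055 of 15247 higher and 2398 lower). All 5 were higher in D4M and none was lower, and the part of the markers in this was not tested. Of these 5, Lhx2, Lhx6, Lhx9 and Msx3 averaged at most 0.434 CPM in every other line and entered the tested genes through D4M, so the count says nothing about the relatives as a group. Without the filter on low counts, 7 of 18 relatives were called for D4M, all higher. The 35.8% holds for the filtered genes, so this count has no matching share here and nothing is read from it. Other lists also hold tested genes found in D4M alone, and their counts and medians below describe the tested genes only. Lhx6, a LIM homeodomain gene of cortical interneurons and jaw mesenchyme, had 107 ± 8.13 CPM in D4M and at most 0.309 CPM in another line. Lhx9 had 8.57 ± 1.97 CPM in D4M and at most 0.434 CPM elsewhere, Lhx2 2.75 ± 0.511 CPM in D4M and at most 0.0236 CPM elsewhere. Msx3, which in the mouse is best known from the dorsal spinal cord, had 3.63 ± 0.594 CPM in D4M and at most 0.057 CPM elsewhere. D4M thus held transcripts of all 3 Msx genes. In TPM, Msx1 was 7.21 ± 1.91 times Msx3 there and 136 ± 68.6 times Msx2 (SD, n = 4 libraries). Dlx2 was the remaining one called.

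Of the relatives not called for D4M or for the groups, Dlx6 was the most variable. It had 21.8 ± 1.79 CPM in RET and 11.5 ± 2.56 CPM in B16F10 luc2 (SD, n = 5) and at most 0.0733 CPM in the other lines, while its genomic partner Dlx5 was at 0 counts in all 25 libraries. It was called higher in RET against each other line (smallest log2 difference 0.94, SE 0.13, adjusted p = 1.7e-06 by voom and limma), where 7.07% of all genes were. Isl2, a LIM homeodomain gene of motor neurons, had 0.792 ± 0.116 CPM in WT31, 0.379 ± 0.123 CPM in HCmel12 and at most 0.0621 CPM in the other lines. Tfap2d, the direct neighbour of Tfap2b and an AP-2 gene of the midbrain, was at 0 counts in every library, and Tfap2e reached at most 1 count. Tfap2a was not called in any pattern.

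LIM homeodomain factors work with Ldb proteins, which Lmo proteins compete for and which Ssbp proteins stabilise and the ligase Rlim degrades, while Cited proteins are coactivators and Kctd proteins inhibitors of AP-2. Of 15 such partners 12 passed the filter. None was called between HIM- and LM-melanoma by voom and limma at an adjusted p under 0.05, nor by either count model (DESeq2, edgeR's quasi-likelihood fit), and 0 met an unadjusted p under 0.05 in all 6 comparisons, where 12.9% of all genes were called. Their median log2 difference was 0.31, against a median within 0.01 of 0 for all genes. Ldb1 and Rlim were present in lines with and without Lmx1b. Ldb1 had means between 141 CPM in D4M and 225 CPM in B16F10 luc2, and Rlim between 60.2 CPM in WT31 and 206 CPM in RET.

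Single lines differed in some partners. In D4M, Cited1 was lower with 0.133 ± 0.112 CPM, Ldb1 was lower with 141 ± 7.39 CPM, Ssbp2 was lower with 11.4 ± 2.65 CPM, and Lmo4 was higher with 154 ± 8.20 CPM (SD, n = 5), 4 of 12 in all (33.3%, near the 35.8% of all genes) with a median log2 difference of -0.32 (-0.30 with levels at the floor) against -0.02 for all genes. Ssbp2 was not called with DESeq2's size factors, by edgeR, by DESeq2, without a filter, or without WT31 replicate 1, WT31 replicate 3, D4M replicate 3 or D4M replicate 4. Cited1, a melanocyte-enriched coactivator of AP-2, was highest in HCmel12 at 257 ± 55.8 CPM, so the 2 lines with Tfap2b lay at opposite ends for it. Lmo2 was at 93.4 ± 35.9 CPM in WT31 and at most 0.499 CPM elsewhere. Lmo1 was at 17.8 ± 2.78 CPM in B16F10 luc2 and 15 ± 1.87 CPM in RET, 1.49 ± 0.359 CPM in D4M and at most 0.0892 CPM in the others, and passed no pattern.

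**Figure D3:**
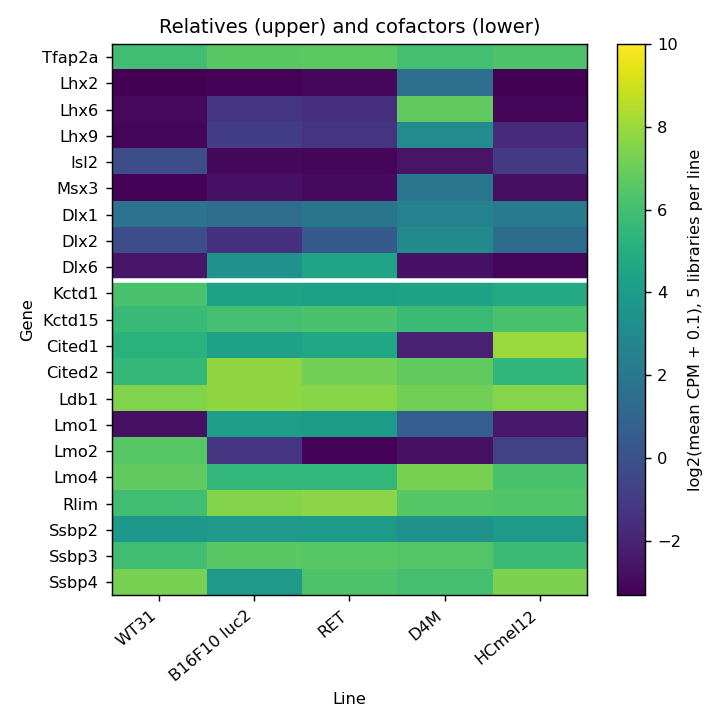
Mean level of the 9 relatives (upper block) and 12 partner genes (lower block) that passed the filter, as log2(mean CPM + 0.1) over the 5 libraries of each line. Tfap2a is present in all lines, Lhx2, Lhx6, Lhx9 and Msx3 are high in D4M, Dlx6 in B16F10 luc2 and RET, and Cited1 is low in D4M and high in HCmel12.

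Genes that act with the members in the neural crest (crest specifiers, and ligands, antagonists and targets of the BMP pathway) were listed as well. Of 28 genes, 24 passed the filter. Between HIM- and LM-melanoma 2 were called, Id2 higher in HIM-melanoma and Snai1 lower, both named after their values were seen, against 12.9% of all genes. For D4M 6 were higher and 6 lower, 12 of 24 against 35.8% of all genes, with a median log2 difference of 0.39 (0.43 with levels at the floor) against -0.02 for all genes. By the same call, 8 of 9 melanocyte markers were lower in D4M and 4 of 4 tested fibroblast markers higher. Sox10, lower in D4M, is on this list and among the melanocyte markers. The part of the markers in the count was not tested. Bmp2, a ligand that induces Msx genes in the embryo, had 565 ± 62.4 CPM in D4M, 13.6 ± 2.98 CPM in WT31 and at most 0.0735 CPM elsewhere. Its antagonist Grem1 had 863 ± 107 CPM in D4M and at most 0.047 CPM elsewhere. Bmp7 had 607 ± 39.8 CPM in WT31, where Msx1 held at most 3 counts, and at most 0.105 CPM in any other line. Sox10, which maintains melanocyte identity, had 0.552 ± 0.872 CPM in D4M and means between 547 and 897 CPM in the other lines (SD, n = 5).

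Genes reported in other settings as targets of AP-2 or Lmx1b factors were listed as well. Of 21 such genes, 13 passed the filter. Between the groups 1 was called, Nr4a2, which was lower in HIM-melanoma and was named after its values were seen, against 12.9% of all genes. Nr4a2 was not called with TPM or with a log2 limit of 1. For D4M 4 of 13 were higher and 2 lower, against 35.8% of all genes, with a median log2 difference of 0.67 (0.75 with levels at the floor) against -0.02 for all genes. Kit, lower in D4M, is also a melanocyte marker, and the part of the cell type markers in this count was not tested. Kit, a melanocyte receptor regulated by AP-2, had 531 ± 104 CPM in WT31, 120 ± 18.7 CPM in HCmel12, 6.89 ± 1.51 CPM in B16F10 luc2 and at most 0.739 CPM in RET and D4M. Kit was thus found in lines with and without abundant Tfap2b. Every line also held Tfap2a, so nothing is read from this about regulation by AP-2. F2r, the thrombin receptor gene that AP-2 is reported to repress, had 238 ± 8.96 CPM in D4M, 13.9 ± 1.42 CPM in WT31 and at most 0.0628 CPM elsewhere. En1, a homeobox gene of the midbrain and ventral limb, had 3.95 ± 0.746 CPM in D4M and 0 counts in the other lines. Tph2, a serotonin synthesis enzyme of neurons that depend on Lmx1b, had 22.7 ± 2.43 CPM in B16F10 luc2 and 21.1 ± 2.09 CPM in RET but 0.0463 ± 0.0689 CPM in WT31, 2.42 ± 0.364 CPM in HCmel12 and 1.15 ± 0.264 CPM in D4M (SD, n = 5).

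The nearest protein-coding genes beside the members were examined to see whether the difference between lines reached beyond the gene. Of 11 flanking genes 8 passed the filter. None of those next to Tfap2b followed it. Tfap2d lies 42.6 kb away and was at 0 counts, and Pkhd1, a cilia gene 819 kb away, had its highest mean of 0.747 ± 0.194 CPM in WT31. Between HIM- and LM-melanoma 2 of 8 were called, against 12.9% of all genes. Mvb12b, an endosomal sorting gene 89.4 kb from Lmx1b, was higher in HIM-melanoma, where Lmx1b was high, with 184 ± 6.33 CPM in WT31, 118 ± 5.61 CPM in RET and 104 ± 4.86 CPM in B16F10 luc2 against 73.9 ± 6.87 CPM in D4M and 83.5 ± 8.45 CPM in HCmel12 (smallest log2 difference 0.33, SE 0.06, adjusted p = 6.4e-05 by voom and limma). On the other side of Lmx1b, Zbtb43 was highest in WT31 at 27 ± 4.26 CPM and lay between 13.6 and 17.4 CPM in the other lines. The difference of Mvb12b was at most 1.32 on the log2 scale.

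Stx18, a membrane fusion gene 214 kb from Msx1, was higher in HIM-melanoma and had 23.3 ± 0.884 CPM in D4M, where Msx1 was high, and 19.1 ± 1.61 CPM in HCmel12 (smallest log2 difference 0.16, SE 0.06, adjusted p = 0.019 by voom and limma). It was not called with DESeq2's size factors or without WT31 replicate 4, D4M replicate 3 or D4M replicate 4. Neither Stx18 nor Mvb12b reached a log2 difference of 1 in all 6 comparisons. For D4M 2 of 8 were called, against 35.8% of all genes: Rxrg next to Lmx1a, which entered the tested genes through D4M, was higher at 0.682 ± 0.125 CPM, and Mvb12b was lower (smallest log2 difference -0.18). This call of Mvb12b was lost with a log2 limit of 1 and without D4M replicate 4, D4M replicate 5 or HCmel12 replicate 4. Bmp7, 309 kb from Tfap2c, was high in WT31, where Tfap2c had no count. Of the genes beside Msx2, Drd1 was highest in HCmel12 at 6.59 ± 1.54 CPM. Sptlc1 had its highest mean in D4M at 47.1 ± 2.62 CPM, against 27.3 to 43 CPM elsewhere, and was called higher there only with DESeq2's size factors and without D4M replicate 2.

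**Figure D4:**
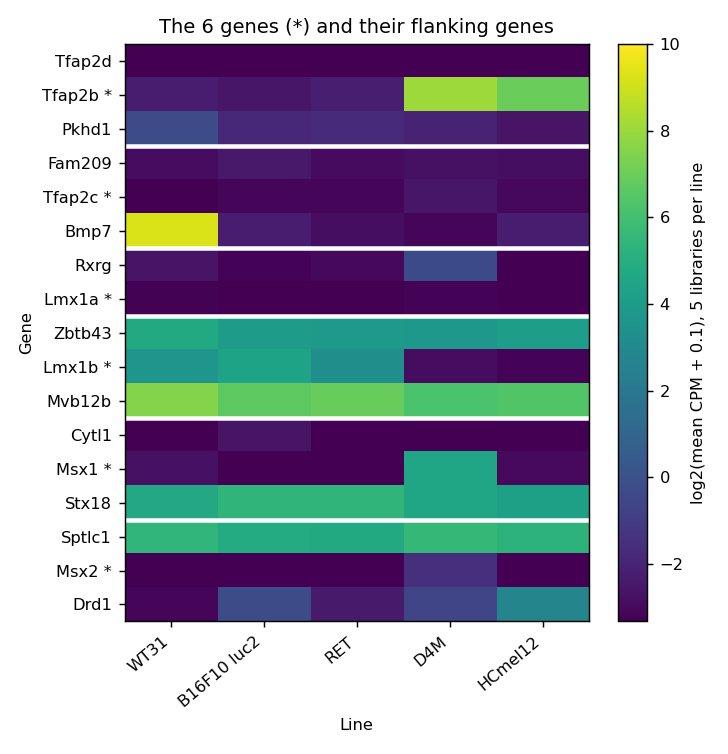
Mean level of each of the 6 genes (asterisk) beside its nearest protein-coding genes at lower and higher coordinates, as log2(mean CPM + 0.1) over the 5 libraries of each line. The sharp changes of Tfap2b, Lmx1b and Msx1 between lines are not seen in the genes beside them, while Bmp7 beside Tfap2c is high in WT31 only.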

How the data were processed

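RNA-seq was available for 25 libraries of 5 cultured melanoma lines, 5 biological replicates each. The authors trimmed reads with Trim Galore (0.6.4) and quantified them with kallisto against GRCm38.p6. The submitters' processing notes give kallisto 0.4.6, while the paper's methods give a different version number, so the version used is uncertain. The annotation release and the step from transcripts to genes are not given in the sources used here. The authors deposited estimated counts per gene without normalization, which sum to between 24199083 and 25843286 per library. The authors also deposited TPM values, scaled to 1000000 per library, of which 24 libraries were used (those of D4M replicate 1 were not used here).

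Gene symbols were matched by Ensembl identifier (55144 of 55385). Counts were filtered with filterByExpr (edgeR 4.0.16; 15247 genes kept), scaled with TMM and fitted with voom and limma (3.58.1, R 4.3.3) with one mean per line. P-values were adjusted by the Benjamini-Hochberg method per comparison over all genes, at 0.05. Voom and limma are the study's choice. CPM is counts over TMM-scaled library size. A fold against a line at 0 uses a floor of 3 counts per library.

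The 6 genes and the lists were chosen with earlier results of these data known. Besides the 6 genes, the text may name any tested relative or partner, the 4 tested genes with the widest range of line means in each other list, the 5 genes most like each expressed member, the nearest protein-coding gene on each side (1 flanking gene is not reported here), and cell type markers. Alternatives were library size or DESeq2 size factors (DESeq2 1.42.0), edgeR's quasi-likelihood and DESeq2's Wald test on rounded counts, other filters, TPM with a pseudocount of 1 or 0.1, a log2 limit of 1, the replicate number as a block, and leaving out each library. The fit was tested on simulated data. Replicates are labelled biological, without more on their origin.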

Additional observations from a re-analysis of the deposited data

Results flagged for a closer look

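In 100 combinations of gene and line (the 6 genes, their tested relatives and partners, in lines with a library above 3 counts), 6 had a library further from its group than Dixon's 95% limit of 0.71 for 5 samples. Chance flags about 1 in 20 such groups. None of the 6 was one of the chosen genes. Lhx9 was at 12 CPM in D4M replicate 2 and between 7.29 and 8.09 CPM in the other D4M libraries. Dlx6 was at 0.185 CPM in D4M replicate 1, against at most 0.0457 CPM. Lmo1 was at 0.192 CPM in WT31 replicate 4, against at most 0.038 CPM. Lmo4 was at 99.5 CPM in HCmel12 replicate 4, against 62.6 to 68.9 CPM. Rlim was at 269 CPM in RET replicate 2, against 176 to 202 CPM, and at 101 CPM in HCmel12 replicate 2, against 78 to 82.7 CPM.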

How the results depend on the processing

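Each line is a single cell line. The intervals of the ratios to lines near 0 cover counting error only and not the spread between replicates. The floor of 3 counts per library was a chosen limit, and Tfap2b had counts in all 25 libraries. A level under it in a single library was treated as not told apart from 0. No direction reversed. Scaling by library size alone moved the median of all genes by 0.15 to 0.23 (log2) between HIM lines and D4M and by -0.18 between D4M and HCmel12, and the log2 difference of Tfap2b between D4M and HCmel12 from 1.05 to 0.88.

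With at least 10 counts in every library, the relatives called fell to 0 between the groups and to 0 for D4M (2 tested), the crest and BMP genes to 1 and 6, the reported targets for D4M to 3 and the flanking genes for D4M to 1, since fewer genes were tested. With log2(TPM + 0.1) 2 relatives were called between the groups, Dlx6 being added. Of the reported targets, 0 were called between the groups with log2(TPM + 1), with and without the filter, with log2(TPM + 0.1) and with a log2 limit of 1. That limit also left 1 partner for D4M, 0 flanking genes between the groups and 1 for D4M. Msx2 was above the floor in 1 line with a floor of 1 count or by its line mean.

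DESeq2's size factors left 1 flanking gene called between the groups and gave 3 for D4M, Sptlc1 being added.

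When a library was left out, the flanking genes called between the groups ranged from 1 to 2 (Stx18 was lost without WT31 replicate 4, D4M replicate 3 or D4M replicate 4), those called for D4M ranged from 1 to 3 (Mvb12b was lost without D4M replicate 4, D4M replicate 5 or HCmel12 replicate 4), Msx2 passed in 0 to 1 lines, and 0 to 5 of the genes most like Msx1 remained (0 without WT31 replicate 5). For D4M, single omissions gave 5 to 6 relatives, 3 to 4 partners, 12 to 14 crest and BMP genes and 6 to 7 reported targets. Dlx1 was the relative added, without D4M replicate 1, D4M replicate 3 or HCmel12 replicate 3. Between the groups, the counts of these lists stayed the same. Without the D4M line 1 gene most like Tfap2b, 2 most like Lmx1b and 0 most like Msx1 remained. Without D4M replicate 1 and HCmel12 replicate 4 together, an alternative chosen after seeing the data, 1 flanking gene was called for D4M. Other causes of these changes were not tested.

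Samples with the same replicate number did not deviate together: the 50 correlations of deviations from the line means lay between -0.08 and 0.09. With the replicate block, 1 relative was called between the groups and 5 for D4M, and the log2 difference of Tfap2b was 1.05, as without it.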
